A study of Homo sapiens with 10 samples.

Results

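The genes described here are 49 genes of the unfolded protein response and of protein folding in the endoplasmic reticulum (ER), chosen by name and grouped into 5 sensors and membrane regulators, 19 chaperones and folding enzymes, 14 genes of the translocon, signal peptidase and export, and 11 genes of ER-associated degradation. Of the 49, 47 had a probe set annotated to that gene alone, as did 19775 genes in all, and 2 (SEC61G and SYVN1) were not analysed here. VIMP was found under its current symbol SELENOS. They were followed in mantle cell lymphoma, a tumour of mature B cells, in RNA from the HBL2 and JEKO lines taken during logarithmic growth. The groups were 3 arrays of HBL2 BR, 3 of HBL2 PT, 2 of JEKO BR and 2 of JEKO PT. BR cells carry a resistance induced by bortezomib, an inhibitor of the proteasome, and PT cells carry no such label and are read here as the parental cells, from what is known of the study. The labels name no other treatment or genetic change. The sources used here do not give the dose used for selection, whether the drug was present at harvest, or whether a BR line is 1 clone.

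Secretory proteins enter the ER through the SEC61 channel, are folded there by chaperones and disulfide isomerases, and leave in COPII vesicles. Proteins that fail to fold are moved back to the cytosol and degraded by the proteasome, the enzyme that bortezomib blocks. When unfolded proteins accumulate, the sensors IRE1 (gene ERN1), ATF6 and PERK (gene EIF2AK3) slow translation and induce chaperone and degradation genes, partly through the transcription factor XBP1. Plasma cells, which secrete antibody, depend on this response, and proteasome inhibitors are known to activate it.

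The deposited scores are, on each array, the same values in another order, from 0 to 4.99 with a median of 0.73. Neither their scale nor a log base is given, so changes are differences in deposited units and not folds, and scores of different genes are not compared. Arrays of 1 group correlated at 0.932 to 0.958 over probe sets, and BR with PT arrays of a line at 0.917 to 0.942. Of the listed B cell markers 5 of 5 measured, and of the mantle cell lymphoma markers 2 of 2 (CCND1 and SOX11), lay above the array median on all 10 arrays. None of 6 T and NK cell markers or of 4 myeloid markers did so, while 1 of 5 stromal and epithelial markers did (COL1A1). Below the median on all arrays were 3 of the T and NK cell markers, 1 myeloid marker (CD14) and no stromal or epithelial marker. Of 5 plasma cell markers 3 (PRDM1, IRF4 and TNFRSF17) lay above the median on all arrays. As a sum, plasma cell markers stood higher in BR cells of both lines. The summed score of PRDM1, IRF4, SDC1, CD38 and TNFRSF17 was 8.09 to 8.22 in HBL2 BR, against 6.29 to 6.80 in HBL2 PT. In JEKO BR it was 6.38 to 6.67, against 5.88 to 5.89 in JEKO PT. The summed score of the B cell markers was 10.2 to 11.0 in HBL2 BR, against 11.2 to 12.1 in HBL2 PT, and 11.8 to 11.9 in JEKO BR, against 11.5 to 11.7 in JEKO PT. The part of these shifts in the results below was not tested. In bulk RNA, fewer cells expressing a gene and less RNA per cell cannot be told apart.

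Several of the genes carry known stress response elements before their start, and these sequences are shown because genes that share them are set side by side below. The motifs searched on both strands were the ER stress response element ERSE (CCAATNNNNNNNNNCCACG), the shorter ERSE-II (ATTGGNCCACG) and the unfolded protein response element UPRE (TGACGTGG). RefSeq promoters (GRCh38.p14) run from 250 bases before to 50 bases after the annotated start and were found for 44 of the 49 genes. At least 1 motif was found in 9 of these 44 (20.5%), against 253 of 27305 promoters of the same length (0.927%). ERSE was found in 5 of the 44, against 0.0806% of all promoters, ERSE-II in 3, against 0.0549%, and UPRE in 2, against 0.795%. The genes were chosen by name for this response and the motifs are its known elements, so these shares describe the genes and test nothing. A match is a description of the letters and not a measured binding site. Only exact fixed letters and spacing were counted. The matches are given in the direction of the motif, with its fixed letters in capitals, and the coordinates of each follow its gene name.
HSPA5 ERSE (chr9:125241391-125241409, 66 bases before the start): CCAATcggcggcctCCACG
HSP90B1 ERSE (chr12:103930216-103930234, 194 bases before the start): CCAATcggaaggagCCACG
HSP90B1 ERSE (chr12:103930321-103930339, 89 bases before the start): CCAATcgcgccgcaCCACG
CALR ERSE (chr19:12938384-12938402, 225 bases before the start): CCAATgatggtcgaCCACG
CANX ERSE (chr5:179698778-179698796, 151 bases before the start): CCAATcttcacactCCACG
CRELD2 ERSE (chr22:49918554-49918572, 80 bases before the start): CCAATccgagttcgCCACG
HYOU1 ERSE-II (chr11:119057380-119057390, 185 bases before the start): ATTGGaCCACG
HYOU1 ERSE-II (chr11:119057274-119057284, 79 bases before the start): ATTGGaCCACG
SDF2L1 ERSE-II (chr22:21642114-21642124, 188 bases before the start): ATTGGtCCACG
HERPUD1 ERSE-II (chr16:56932025-56932035, 117 bases before the start): ATTGGgCCACG

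The UPRE matches lay in HYOU1, 188 bases before the start and overlapping the first ERSE-II match there, and in SEC62, 17 bases before the start. The promoters of HSPA5, whose score was close in BR and PT, and of CRELD2 and HERPUD1, which fell in HBL2 BR, are shown whole, 5′ to 3′ on the strand of the gene, with the match in capitals. HSPA5 lies on the minus strand of chr9:125241294-125241593, CRELD2 on the plus strand of chr22:49918384-49918683 and HERPUD1 on the plus strand of chr16:56931892-56932191. In CRELD2 the motif reads on the opposite strand.
HSPA5: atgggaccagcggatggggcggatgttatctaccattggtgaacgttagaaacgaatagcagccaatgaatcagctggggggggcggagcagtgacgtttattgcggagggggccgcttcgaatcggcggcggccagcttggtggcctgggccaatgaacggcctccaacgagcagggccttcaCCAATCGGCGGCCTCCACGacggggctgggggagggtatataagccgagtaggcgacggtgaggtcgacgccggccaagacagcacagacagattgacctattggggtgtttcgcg
CRELD2: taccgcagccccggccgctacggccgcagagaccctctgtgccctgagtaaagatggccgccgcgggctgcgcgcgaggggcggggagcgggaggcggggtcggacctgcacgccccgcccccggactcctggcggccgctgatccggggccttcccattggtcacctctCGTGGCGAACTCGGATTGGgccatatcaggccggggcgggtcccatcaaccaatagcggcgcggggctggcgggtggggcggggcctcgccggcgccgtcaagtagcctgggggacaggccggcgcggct
HERPUD1: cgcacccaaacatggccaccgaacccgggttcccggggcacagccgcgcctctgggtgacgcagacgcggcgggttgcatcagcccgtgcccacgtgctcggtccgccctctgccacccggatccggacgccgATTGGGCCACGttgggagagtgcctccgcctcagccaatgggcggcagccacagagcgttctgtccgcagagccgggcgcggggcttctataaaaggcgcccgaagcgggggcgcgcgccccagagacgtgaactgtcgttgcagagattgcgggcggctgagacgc

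**Figure D1:**
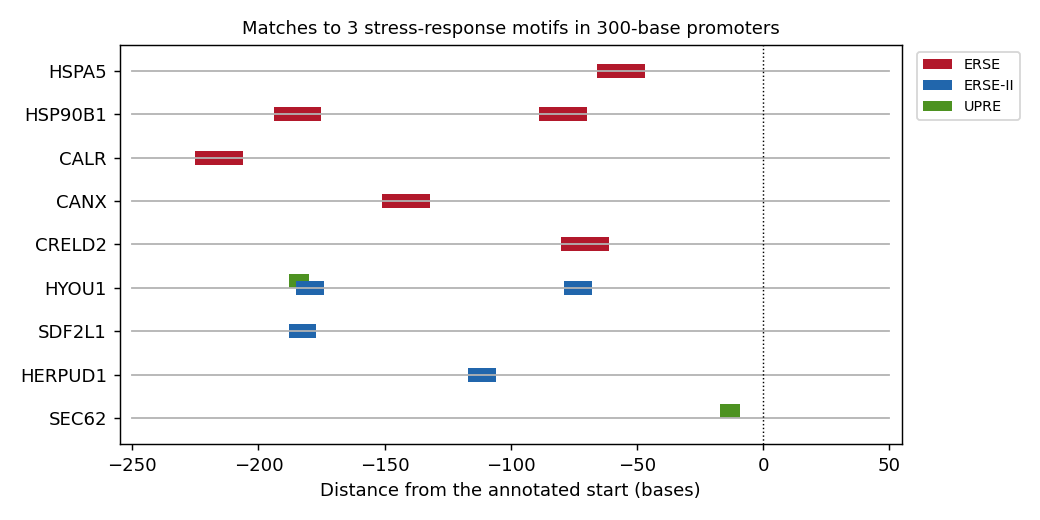
Position of the motif matches in the promoters of the 9 genes that hold one, as distance in bases from the annotated start (dotted line), with ERSE in red, ERSE-II in blue and UPRE in green. Of the ERSE and ERSE-II matches, that of CALR lies farthest from the start (225 bases) and that of HSPA5 nearest (66 bases).

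Few of the 47 genes passed the test in either line, and those that did went both ways. In HBL2 BR 3 genes rose (SEC61B, SELENOS and DERL2) and 3 fell (CRELD2, HERPUD1 and CREB3L2), by limma at an adjusted p under 0.05, which is 12.8% of the 47, against 11.8% of the 14445 genes tested (4.94% higher and 6.90% lower). In JEKO BR FKBP11 rose and EDEM3 fell, which is 4.26% of the 47, against 4.31% of all genes tested (2.58% higher and 1.73% lower). Both shares lie near the background. An unadjusted limma p under 0.05 was reached by 16 of the 47 in HBL2 (11 higher and 5 lower), against 23.6% of all genes tested. In JEKO it was reached by 10 (7 higher and 3 lower), against 17.6%. Over all genes tested, 1553 were higher and 1859 lower at that level in HBL2, and 1469 and 1076 in JEKO. Estimates were positive for 63.8% of the 47 in HBL2, against 49.7% of all genes tested, and for 66.0% in JEKO, against 53.4%. The median change of the 47 was 0.047 in HBL2 and 0.026 in JEKO, against -0.001 and 0.012 over all genes tested. Every BR array lay above every PT array for 13 genes in HBL2 (27.7%, against 12.8% of all genes tested) and below for 6 (12.8%, against 14.5%). In JEKO, with 2 arrays a group, the counts were 16 above (34.0%, against 28.3%) and 7 below (14.9%, against 22.5%). Since all 47 passed the filter on low scores, and 46 of them lay at or above the array median on all 10 arrays (SDF2L1 did on 9), none was lost to that filter.

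**Figure D2:**
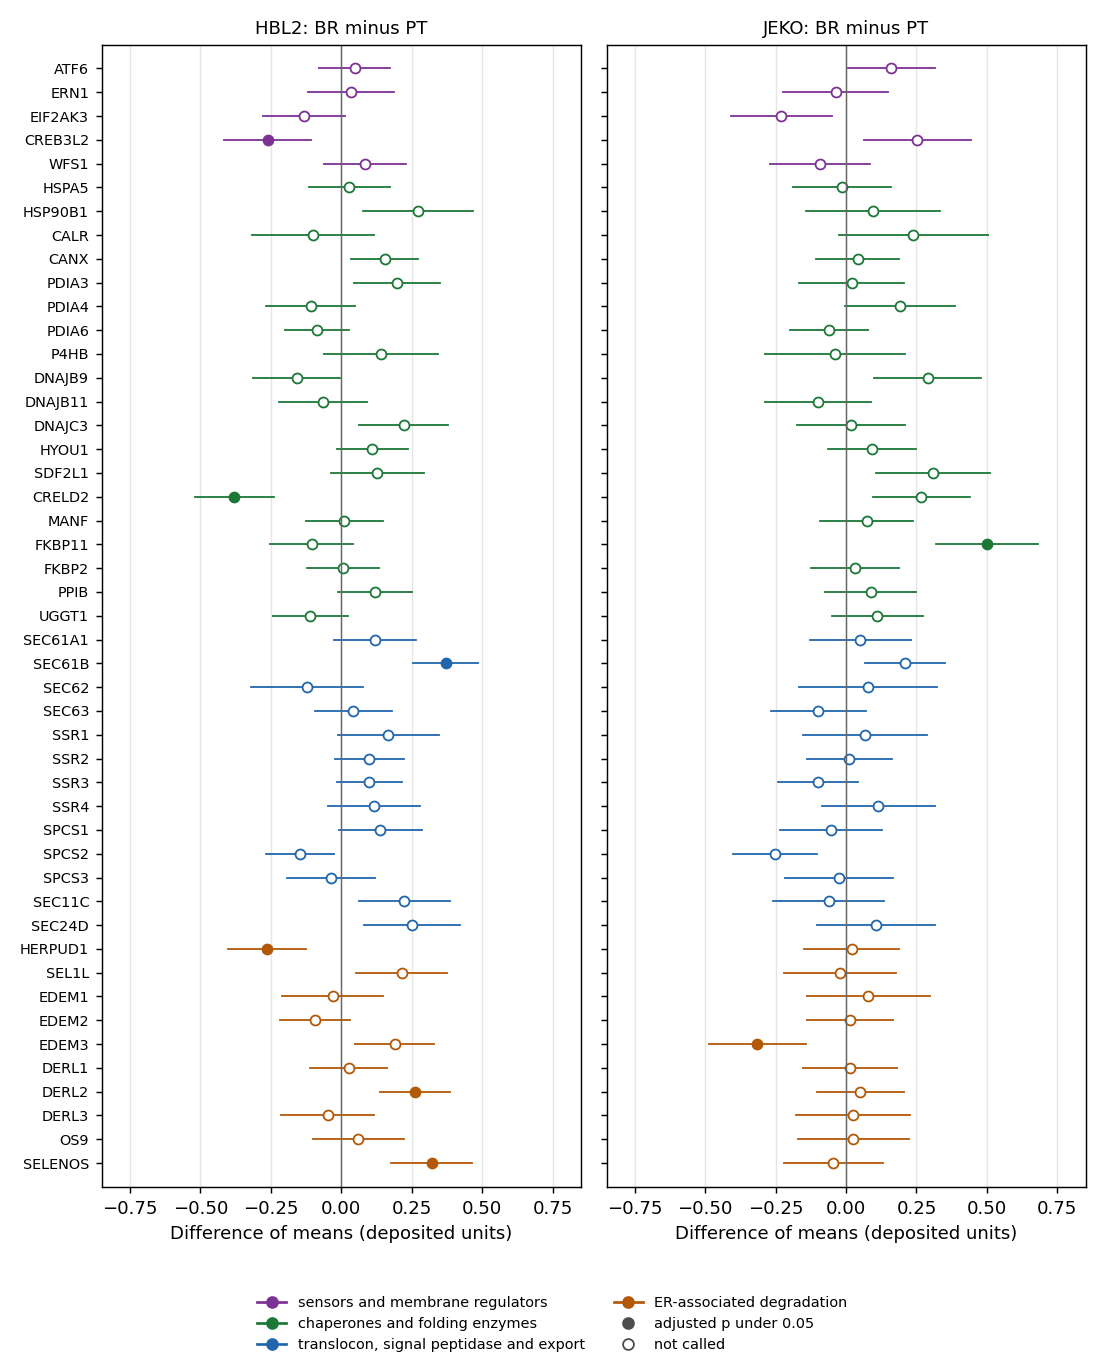
BR minus PT in HBL2 (left) and JEKO (right) for the 47 genes, in deposited units, coloured by role. Circles are differences of group means, lines are 95% confidence intervals of the limma fit, and filled circles have an adjusted p under 0.05: 6 genes in HBL2 and 2 in JEKO.

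None of the 3 sensors passed the test in either line. ATF6, the sensor that is cleaved in the Golgi to release a transcription factor, had scores of 1.64, 1.64 and 1.71 in HBL2 BR, against 1.64, 1.58 and 1.62 in HBL2 PT, and 1.68 and 1.82 in JEKO BR, against 1.58 and 1.60 in JEKO PT. The groups overlapped in HBL2 and not in JEKO, and the changes were 0.047 ± 0.059 (SE, adjusted p = 0.70) and 0.16 ± 0.072 (adjusted p = 0.26). ERN1, the kinase and endonuclease that splices XBP1 messenger RNA, scored 1.14, 1.16 and 1.29 in HBL2 BR, against 1.05, 1.21 and 1.22 in HBL2 PT. It scored 1.30 and 1.12 in JEKO BR, against 1.20 and 1.29 in JEKO PT, and the groups overlapped in both lines. The 95% intervals of its changes ran from -0.12 to 0.19 in HBL2 and from -0.22 to 0.15 in JEKO.

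EIF2AK3, the kinase that slows translation by phosphorylating eIF2-alpha, was the sensor with the lowest estimates. Its scores were 1.48, 1.58 and 1.69 in HBL2 BR, against 1.63, 1.74 and 1.77 in HBL2 PT, and 1.57 and 1.70 in JEKO BR, against 1.82 and 1.91 in JEKO PT. The groups overlapped in HBL2, and both JEKO BR arrays lay below both JEKO PT arrays. The changes of -0.13 ± 0.069 (adjusted p = 0.27) and -0.23 ± 0.084 (adjusted p = 0.15) did not pass in either line, nor did their mean of -0.18 (adjusted p = 0.053). WFS1, wolframin, an ER membrane protein that restrains ATF6 signalling, had differences of 0.085 and -0.093 (adjusted p = 0.51 and 0.64).

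CREB3L2, a membrane-bound transcription factor related to ATF6, fell in HBL2 BR. It scored 1.21, 1.31 and 1.46 in HBL2 BR, against 1.64, 1.56 and 1.55 in HBL2 PT, with no overlap, and fell by 0.26 ± 0.073 (adjusted p = 0.028). In JEKO BR it scored 1.60 and 1.73, against 1.33 and 1.49 in JEKO PT, a difference of 0.25 ± 0.090 (adjusted p = 0.14). The HBL2 change was lower than the JEKO change by a tested difference of -0.51 ± 0.12 (adjusted p = 0.011). That value rests on 1 of 3 probe sets: with the median over them the HBL2 change was -0.11 (adjusted p = 0.28) and the difference of changes -0.17 (adjusted p = 0.31). The HBL2 call was also lost without any 1 of HBL2 BR replicates 1 and 2 and HBL2 PT replicates 1 and 2, and the difference without JEKO BR replicate 2 or JEKO PT replicate 1.

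Among the 19 chaperones and folding enzymes, CRELD2 fell and none rose in HBL2 BR (5.26%, against 11.8% of all genes tested), and FKBP11 rose and none fell in JEKO BR (5.26%, against 4.31%). The median change of the group was 0.011 in HBL2 and 0.087 in JEKO. HSPA5, which encodes BiP, the main ER chaperone and the usual readout of this response, scored 2.84, 2.86 and 2.85 in HBL2 BR, against 2.71, 2.89 and 2.87 in HBL2 PT. In JEKO it scored 2.62 and 2.51 in BR, against 2.69 and 2.47 in PT, so the groups overlapped in both lines. Its changes were 0.029 (95% interval -0.11 to 0.17) and -0.016 (95% interval -0.19 to 0.16), with adjusted p of 0.86 and 0.96.

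CRELD2, a secreted ER protein with thioredoxin-like motifs that is induced by ER stress, had the largest difference of changes of the 47 genes. It scored 1.54, 1.70 and 1.71 in HBL2 BR, against 2.12, 1.96 and 2.0 in HBL2 PT, and 1.82 and 1.95 in JEKO BR, against 1.62 and 1.61 in JEKO PT. All HBL2 BR arrays lay below the HBL2 PT arrays and both JEKO BR arrays lay above the JEKO PT arrays. It fell by 0.38 ± 0.066 in HBL2 (adjusted p = 0.001), the JEKO change was 0.27 ± 0.081 (adjusted p = 0.079), and the difference of changes was -0.65 ± 0.11 (adjusted p = 0.0011). The HBL2 fall and the difference of changes passed under each of the alternatives run, 23 and 22 of them. CRELD2 had 1 probe set.

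FKBP11, a peptidyl-prolyl isomerase abundant in secretory cells such as plasma cells, scored 1.90, 1.95 and 2.16 in HBL2 BR, against 2.17, 2.09 and 2.06 in HBL2 PT. In JEKO it scored 2.14 and 2.22 in BR, against 1.70 and 1.65 in PT. The HBL2 groups overlapped, while both JEKO BR arrays lay above both JEKO PT arrays. It rose by 0.50 ± 0.085 in JEKO BR (adjusted p = 0.0031), with a change of -0.10 ± 0.069 in HBL2 (adjusted p = 0.40) and a difference of changes of -0.61 ± 0.11 (adjusted p = 0.0024). Its other 2 probe sets gave 0.43 and -0.037 in JEKO. The JEKO call was lost without JEKO BR replicate 2 (0.46, adjusted p = 0.065).

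**Figure D3:**
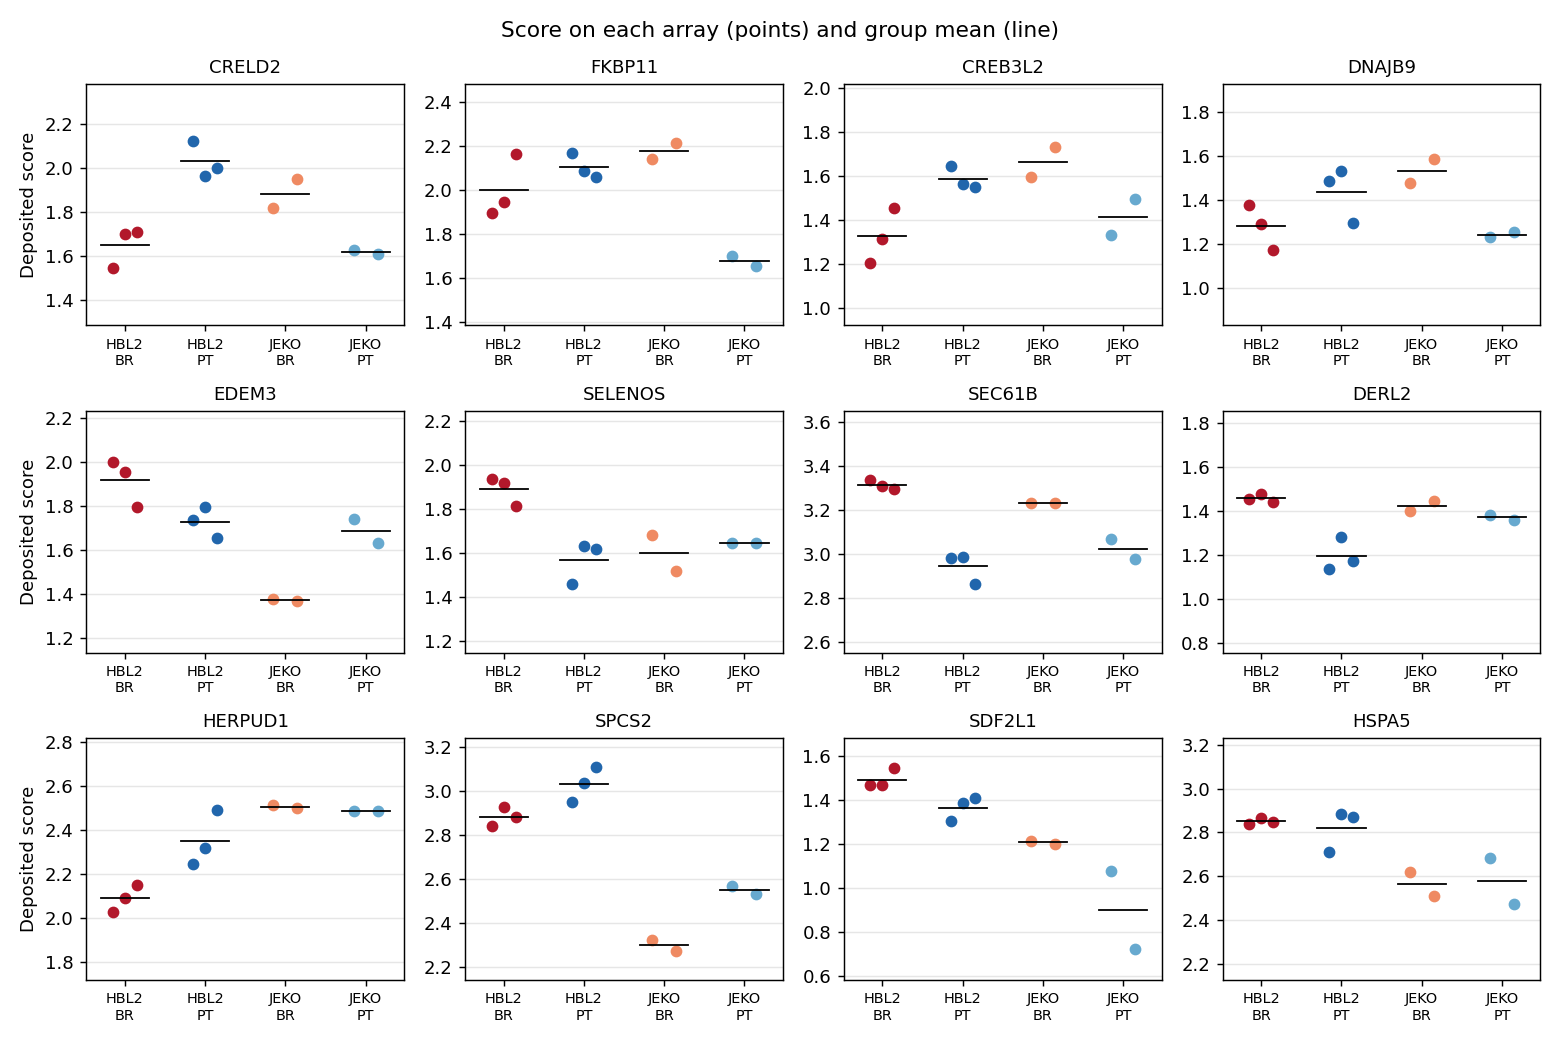
Deposited score on each array (points) and group mean (line) for 12 of the genes, in HBL2 BR, HBL2 PT, JEKO BR and JEKO PT. Every vertical axis has the same length in deposited units, placed around the values of its gene. Scores of different genes are not compared. CRELD2 is low in HBL2 BR and JEKO PT, FKBP11 is low in JEKO PT, and HSPA5 overlaps between BR and PT in both lines.

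DNAJB9, also called ERdj4, a BiP co-chaperone that recruits BiP to IRE1, scored 1.38, 1.29 and 1.17 in HBL2 BR, against 1.48, 1.53 and 1.30 in HBL2 PT. It scored 1.48 and 1.58 in JEKO BR, against 1.23 and 1.25 in JEKO PT, which did not overlap. Neither change passed by itself (-0.16, adjusted p = 0.20, and 0.29, adjusted p = 0.082), and the difference of changes of -0.45 ± 0.12 did (adjusted p = 0.023, lost in 9 of 22 alternatives). Without _x_at and _s_at probe sets, which can bind several transcripts, the difference was 0.032 (adjusted p = 0.95). The 2 other probe sets went apart, since the one with that value gave -0.011 in HBL2 and -0.043 in JEKO, and the other gave -0.088 in HBL2 and 0.13 in JEKO, the direction of the _s_at set.

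SDF2L1, a stabiliser of BiP and its co-chaperones, scored 1.47, 1.47 and 1.54 in HBL2 BR, against 1.30, 1.38 and 1.41 in HBL2 PT, and 1.21 and 1.20 in JEKO BR, against 1.08 and 0.72 in JEKO PT. The BR arrays lay above the PT arrays in both lines. The changes of 0.13 ± 0.078 (adjusted p = 0.36) and 0.31 ± 0.096 (adjusted p = 0.083) did not pass, and their mean over the lines of 0.22 did (adjusted p = 0.040). JEKO PT replicate 2 was far below replicate 1, and without it the mean change was 0.13 (adjusted p = 0.22). That call was lost in 13 of 21 alternatives, among them leaving out any array other than JEKO PT replicate 1 and HBL2 PT replicate 3.

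HSP90B1, or GRP94, the ER member of the HSP90 family, scored 2.41, 2.47 and 2.32 in HBL2 BR, against 1.87, 2.34 and 2.18 in HBL2 PT, and 2.23 and 2.08 in JEKO BR, against 2.09 and 2.03 in JEKO PT. The groups overlapped in both lines. Its probe sets annotated to it alone are all _x_at sets, so it could not be read without such sets. The one not used gave 0.14 in HBL2 and -0.10 in JEKO. The HBL2 change of 0.27 ± 0.092 was the largest positive estimate of the chaperones there and did not pass (adjusted p = 0.067). It passed with the replicate block, with the beta-actin covariate and without HBL2 PT replicate 2 (0.38, adjusted p = 0.013), and leaving out HBL2 PT replicate 1 brought it to 0.14 (adjusted p = 0.23). That array, with the low HSP90B1 score, also had the lowest difference between the 5′ and 3′ beta-actin probe sets, which falls with RNA degradation (-1.25, against -1.04 to -0.58 on the other arrays). Beyond the covariate fit and the fits leaving arrays out, the part of RNA degradation in this result was not tested.

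None of the other chaperones passed in either line. The lectin chaperone CANX (0.15), the isomerase PDIA3 that works with it (0.20) and the BiP co-chaperone DNAJC3 (0.22) had HBL2 BR arrays wholly above the PT arrays, with adjusted p of 0.095, 0.095 and 0.065, and JEKO changes of 0.041, 0.020 and 0.018. CALR, the soluble lectin chaperone, had differences of -0.10 in HBL2 and 0.24 in JEKO, and PDIA4, another disulfide isomerase, of -0.11 and 0.19 (adjusted p from 0.29 to 0.62). The other PDIA4 probe set gave -0.27 in HBL2, with all BR arrays below the PT arrays, and 0.29 in JEKO, with both above. HYOU1, a large BiP relative that exchanges its nucleotide, had differences of 0.11 and 0.092, with the BR arrays above the PT arrays in both lines. PDIA6, an isomerase that binds BiP, had differences of -0.086 and -0.061, with the BR arrays below in both. The prolyl isomerases FKBP2 and PPIB, the disulfide isomerase P4HB, the BiP co-chaperone DNAJB11, the secreted stress factor MANF and UGGT1, the glucosyltransferase that checks glycoprotein folding, had differences between -0.11 and 0.14.

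Of the 13 translocon, signal peptidase and export genes analysed, SEC61B rose and none fell in HBL2 BR (7.69%, against 11.8% of all genes tested), and none passed in JEKO BR. An unadjusted limma p under 0.05 was reached by 4 of the 13 in HBL2, against 23.6% of all genes tested, and by 2 in JEKO, against 17.6%. SEC61B, the beta subunit of the channel, scored 3.34, 3.31 and 3.29 in HBL2 BR, against 2.98, 2.98 and 2.86 in HBL2 PT, and 3.23 and 3.23 in JEKO BR, against 3.07 and 2.98 in JEKO PT. The BR arrays were above the PT arrays in both lines. It rose by 0.37 ± 0.055 in HBL2 (adjusted p = 2.33e-04), the JEKO change was 0.21 ± 0.067 (adjusted p = 0.097), and the mean over the lines was 0.29 ± 0.043 (adjusted p = 5.15e-04). The changes of the lines differed by 0.16, which did not pass (adjusted p = 0.30). Taken as the median of its 2 probe sets, the HBL2 change was 0.22 (adjusted p = 0.021), and with percentile ranks the HBL2 call was lost (adjusted p = 0.22).

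The channel's other partners did not pass in either line. The alpha subunit SEC61A1 had differences of 0.12 in HBL2 and 0.051 in JEKO. Of the partners in post-translational import, SEC62 had -0.12 and 0.078 and SEC63 had 0.043 and -0.098. The 4 translocon-associated proteins SSR1, SSR2, SSR3 and SSR4 had differences of 0.099 to 0.17 in HBL2 and -0.099 to 0.12 in JEKO. In HBL2 10 of the 13 estimates in this group were positive (76.9%, against 49.7% of all genes tested), with a median of 0.12, against -0.001 over all genes tested. In JEKO 7 of the 13 were positive (53.8%, against 53.4%), with a median of 0.011, against 0.012.

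Within the signal peptidase, which removes signal peptides, no subunit passed in a single line. SPCS2, a non-catalytic subunit, scored 2.84, 2.93 and 2.88 in HBL2 BR, against 2.95, 3.03 and 3.11 in HBL2 PT, and 2.32 and 2.27 in JEKO BR, against 2.56 and 2.53 in JEKO PT. The BR arrays lay below the PT arrays in both lines. The changes of -0.15 ± 0.057 (adjusted p = 0.12) and -0.25 ± 0.070 (adjusted p = 0.056) did not pass, and their mean of -0.20 did (adjusted p = 0.012). That mean was -0.17 with the median over probe sets (adjusted p = 0.13) and -0.047 with _x_at and _s_at sets left out (adjusted p = 0.75). Leaving out JEKO BR replicate 2 or JEKO PT replicate 1 ended the call too. SEC11C, a catalytic subunit, had differences of 0.22 in HBL2 (adjusted p = 0.069) and -0.061 in JEKO, SPCS1 of 0.14 and -0.054, and SPCS3 of -0.035 and -0.024. SEC24D, a cargo-binding protein of the COPII coat, had differences of 0.25 in HBL2 (adjusted p = 0.052) and 0.11 in JEKO (adjusted p = 0.65).

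Of the 10 degradation genes analysed, 3 passed in HBL2 (30%, against 11.8% of all genes tested) and 1 in JEKO (10%, against 4.31%). SELENOS, a selenoprotein of the retrotranslocation complex that recruits the ATPase VCP, scored 1.93, 1.91 and 1.81 in HBL2 BR, against 1.45, 1.63 and 1.62 in HBL2 PT, and 1.68 and 1.52 in JEKO BR, against 1.64 and 1.64 in JEKO PT. The HBL2 groups were apart and the JEKO groups overlapped. It rose by 0.32 ± 0.067 in HBL2 (adjusted p = 0.0042), a call kept in each of 22 alternatives, with a JEKO change of -0.045 (adjusted p = 0.85). The difference of changes of 0.37 ± 0.11 passed narrowly (adjusted p = 0.042) and failed in 12 of 21 alternatives, among them leaving out any 1 of HBL2 BR replicates 1 and 2, HBL2 PT replicate 1, JEKO BR replicate 2 and JEKO PT replicates 1 and 2.

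DERL2, a derlin of the same complex, scored 1.45, 1.48 and 1.44 in HBL2 BR, against 1.14, 1.28 and 1.17 in HBL2 PT, and 1.40 and 1.44 in JEKO BR, against 1.38 and 1.36 in JEKO PT. It rose by 0.26 ± 0.059 in HBL2 (adjusted p = 0.0072), with a JEKO change of 0.051 (adjusted p = 0.79) and a difference of changes that did not pass (adjusted p = 0.19). Its other probe set gave -0.045 in HBL2, with overlap, and 0.20 in JEKO, with both BR arrays above both PT arrays. With the median of both probe sets the HBL2 change was 0.11 (adjusted p = 0.33). The call was also lost when the 3 arrays of lowest beta-actin difference were left out. Its relatives DERL1 and DERL3 had differences of 0.026 and -0.048 in HBL2 and 0.013 and 0.026 in JEKO.

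HERPUD1, a stress-induced membrane protein that assembles the degradation complex, scored 2.03, 2.09 and 2.15 in HBL2 BR, against 2.25, 2.32 and 2.49 in HBL2 PT, and 2.51 and 2.50 in JEKO BR, against 2.49 and 2.49 in JEKO PT. The groups did not overlap in either line, though in JEKO they nearly touched. It fell by 0.26 ± 0.065 in HBL2 (adjusted p = 0.014), and the JEKO change was 0.020 (95% interval -0.15 to 0.19). The difference of changes did not pass (-0.28, adjusted p = 0.11). The call was lost without HBL2 BR replicate 1 or HBL2 BR replicate 2, and as the median of its 2 probe sets (-0.24, adjusted p = 0.053).

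EDEM3, a mannosidase that trims glycans of proteins marked for degradation, scored 2.0, 1.95 and 1.79 in HBL2 BR, against 1.73, 1.79 and 1.65 in HBL2 PT, and 1.38 and 1.36 in JEKO BR, against 1.74 and 1.63 in JEKO PT. The JEKO BR arrays lay below every other array. It fell by 0.32 ± 0.082 in JEKO BR (adjusted p = 0.039), the HBL2 change was 0.19 ± 0.067 (adjusted p = 0.082), and the difference of changes was 0.50 ± 0.11 (adjusted p = 0.0066). The JEKO call was lost in 10 of 22 alternatives. Among them were leaving out any 1 of the 4 JEKO arrays or HBL2 BR replicate 2, and the median over probe sets. The other 2 probe sets gave -0.26 and -0.15 in JEKO. EDEM1 and EDEM2, of the same family, had differences of -0.031 and -0.094 in HBL2 and 0.078 and 0.013 in JEKO. SEL1L, the scaffold of the degradation ligase, had differences of 0.21 in HBL2 (adjusted p = 0.084) and -0.020 in JEKO, and the lectin OS9 of 0.060 and 0.026.

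The lines were then compared directly, change against change. For 6 of the 47 genes (12.8%, against 8.77% of all genes tested, 2.97% higher and 5.80% lower) the HBL2 change differed from the JEKO change. It was lower for CRELD2, FKBP11, CREB3L2 and DNAJB9 and higher for EDEM3 and SELENOS. At an unadjusted p under 0.05 the count was 12 of the 47, against 22.1% of all genes tested. Estimates were positive in both lines for 19 genes (40.4%, against 26.3% of all genes tested), negative in both for 5 (10.6%, against 23.2%) and opposite for 23 (48.9%, against 50.5%). No gene was called in both lines, against 178 of the 14445 genes tested. With the mean over the lines, a contrast added to the planned ones, SEC61B, SDF2L1 and FKBP11 rose and SPCS2 fell (4 of 47, 8.51%, against 7.82% of all genes tested, 3.80% higher and 4.02% lower). The FKBP11 mean covers changes that differed between the lines, and its call was lost in 12 of 22 alternatives. An unadjusted p under 0.05 was reached by 13 of the 47, against 20.7% of all genes tested.

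**Figure D4:**
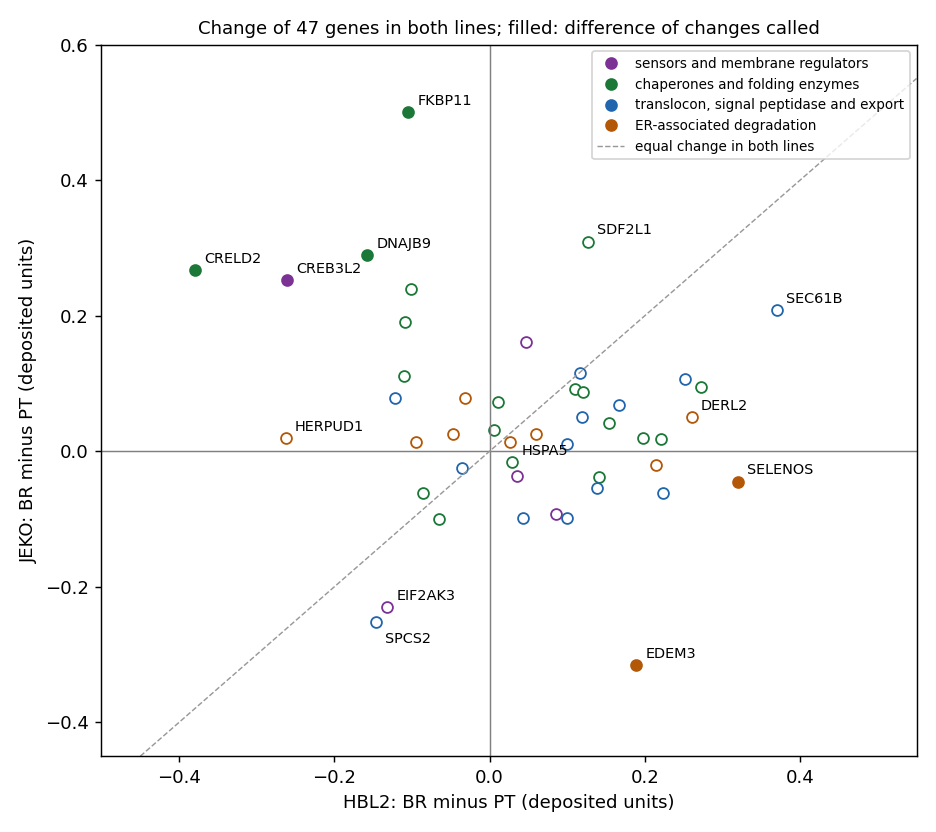
Change in HBL2 (horizontal) against change in JEKO (vertical) for the 47 genes, BR minus PT in deposited units, coloured by role. Filled points are the 6 genes whose changes differed between the lines, and the dashed line marks equal changes. FKBP11, CRELD2, CREB3L2 and DNAJB9 lie at the upper left, EDEM3 at the lower right and SEC61B at the right.

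Genes with and without a promoter match were set side by side. Since matches had to be exact, genes without one may hold elements that differ in a letter or in spacing. Of the 9 genes with a match, 2 fell in HBL2 BR (CRELD2 and HERPUD1; 22.2%, against 11.8% of all genes tested) and none passed in JEKO BR (against 4.31%), with median changes of 0.029 and 0.092. Of the 33 analysed genes with a promoter and no match, 3 rose and 1 fell in HBL2 (12.1%), and 1 rose and 1 fell in JEKO (6.06%), with medians of 0.047 and 0.018. Genes that share ERSE differed among themselves, from -0.38 for CRELD2 to 0.27 for HSP90B1 in HBL2.

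The PT cells of the lines were also compared. In HBL2 PT 13 of the 47 were higher than in JEKO PT and 2 were lower (15 of 47, 31.9%, against 23.3% of all genes tested, 14.0% higher and 9.31% lower). An unadjusted p under 0.05 was reached by 21 of the 47, against 33.9% of all genes tested. This comparison shares the PT arrays with both BR minus PT comparisons, so their values are only set side by side. Of the 19 chaperones 7 were higher and none lower (HSPA5, CALR, DNAJC3, SDF2L1, CRELD2, FKBP11 and PPIB). CALR scored 2.50, 2.18 and 1.96 in HBL2 PT, against 1.68 and 1.76 in JEKO PT, a difference of 0.49 ± 0.11 (adjusted p = 0.0051) that did not pass without JEKO PT replicate 1 (0.45, adjusted p = 0.060) or as the median of its probe sets (0.38). SDF2L1 differed by 0.47 ± 0.087 (adjusted p = 0.001), or 0.29 without JEKO PT replicate 2 (adjusted p = 0.034). FKBP11 differed by 0.43 ± 0.078 (adjusted p = 7.85e-04), or 0.17 as the median of its probe sets (adjusted p = 0.18), and CRELD2 by 0.41 ± 0.074 (adjusted p = 7.50e-04).

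HSPA5 was higher in HBL2 PT by 0.24 (adjusted p = 0.028). It did not pass without HBL2 PT replicate 2 or JEKO PT replicate 2 (0.14 without JEKO PT replicate 2). Nor did it pass without the variance trend, with percentile ranks or with the median over probe sets. The other HSPA5 probe set went the opposite way, with means of 1.21 in HBL2 PT and 1.27 in JEKO PT. In the signal peptidase SPCS2 (0.48 ± 0.064, adjusted p = 5.21e-05) and SEC11C (0.46 ± 0.085, adjusted p = 8.71e-04) were higher in HBL2 PT, and SPCS1 was lower (-0.30 ± 0.078, adjusted p = 0.010). SEC11C scored 2.01, 2.29 and 2.35 in HBL2 PT, against 1.79 and 1.71 in JEKO PT, and SPCS1 scored 2.13, 2.26 and 1.98 in HBL2 PT, against 2.50 and 2.35 in JEKO PT. Neither subunit's groups overlapped. With _x_at and _s_at probe sets left out the SPCS2 difference was 0.094 (adjusted p = 0.53), and that of SPCS1 was -0.22 without JEKO PT replicate 1 (adjusted p = 0.16). OS9, a lectin that hands glycoproteins to the degradation ligase, was the other gene lower in HBL2 PT. It scored 1.96, 1.81 and 1.64 in HBL2 PT, against 2.05 and 2.06 in JEKO PT (-0.25, adjusted p = 0.041, lost in 11 of 20 alternatives). The median over probe sets was among those alternatives. The other OS9 probe set had means of 1.60 in HBL2 PT and 1.58 in JEKO PT. The others higher in HBL2 PT were the channel genes SEC61A1 (0.35), SEC63 (0.25) and SSR4 (0.25), the chaperones DNAJC3 (0.30) and PPIB (0.29), and EDEM2 (0.21). The SSR4 call was lost in 11 of 21 alternatives and the EDEM2 call in 7 of 21. Those of SEC63, DNAJC3, PPIB and SEC61A1 were each lost without 1 JEKO PT array, replicate 1 for SEC61A1, replicate 2 for DNAJC3 and PPIB and either for SEC63. Without JEKO PT replicate 2 DNAJC3 differed by 0.18 (adjusted p = 0.25), without HBL2 PT replicate 2 by 0.23 (adjusted p = 0.069), and SEC63 by 0.14 as the median of its probe sets (adjusted p = 0.13). SSR4 differed by 0.17 without HBL2 PT replicate 1 (adjusted p = 0.14). None of the 5 sensors and regulators passed, and 0 of them had an unadjusted limma p under 0.05. Without JEKO PT replicate 1 or JEKO PT replicate 2 the count of 15 genes was 8.

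**Figure D5:**
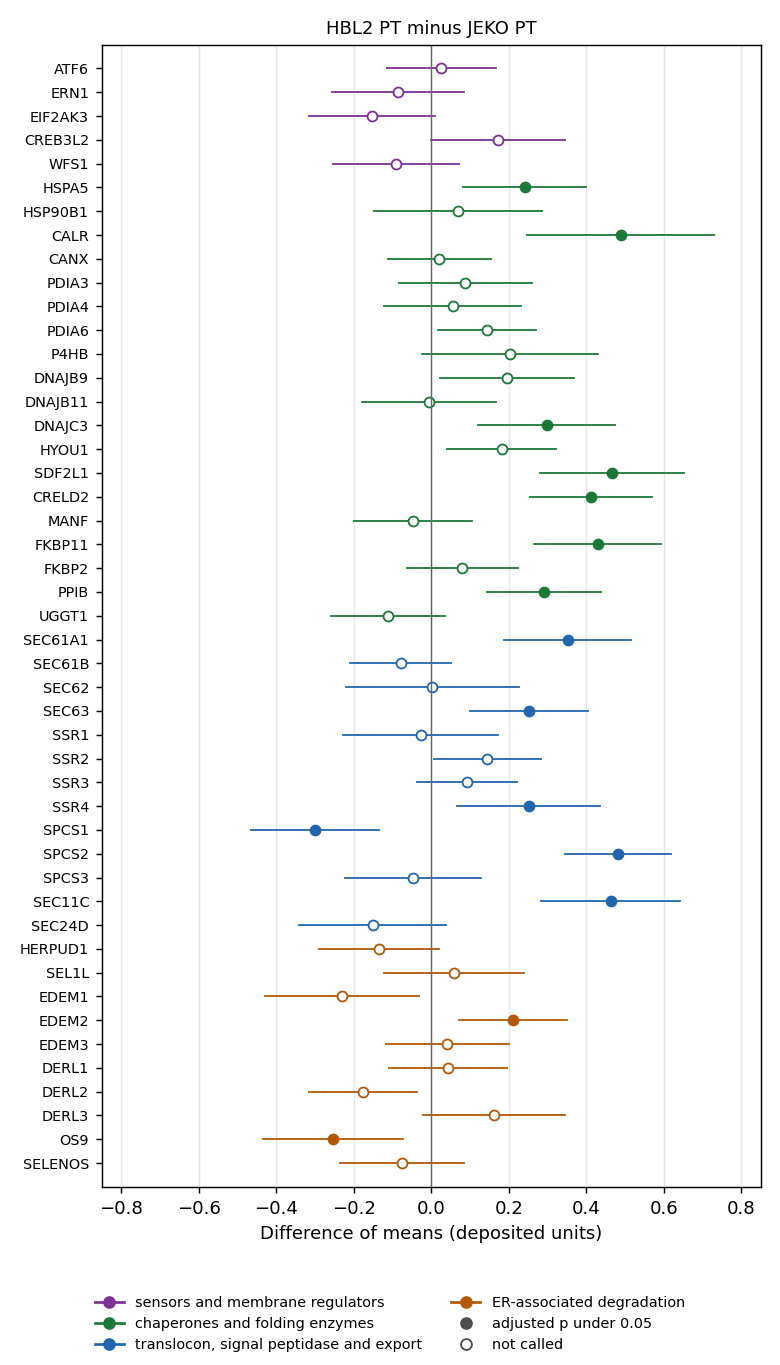
HBL2 PT minus JEKO PT for the 47 genes, in deposited units, with 95% confidence intervals, coloured by role. Filled circles have an adjusted p under 0.05: 13 genes higher in HBL2 PT, among them 7 chaperones, and 2 lower (SPCS1 and OS9).

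Other genes of the pathway were read from lists drawn up by function, whose shares of called genes stand against 11.8% of all genes tested in HBL2 and 4.31% in JEKO. Of 14 transcription factors and genes of the PERK arm, ATF3, CHAC1 and XBP1 rose in HBL2 BR, ATF3 rose in JEKO BR, and none fell (21.4% of the list in HBL2 and 7.14% in JEKO). XBP1 scored 1.81, 1.92 and 1.84 in HBL2 BR, against 1.58, 1.59 and 1.76 in HBL2 PT, and 1.57 and 1.56 in JEKO BR, against 1.28 and 1.34 in JEKO PT. The BR arrays were above the PT arrays in both lines, with changes of 0.21 ± 0.064 (adjusted p = 0.042, lost in 15 of 23 alternatives) and 0.25 ± 0.078 (adjusted p = 0.085), and a mean of 0.23 ± 0.050 (adjusted p = 0.0093). The mean did not pass when JEKO PT replicate 1 was dropped (0.21, adjusted p = 0.053), nor with the 3 arrays of lowest beta-actin difference left out (0.22, adjusted p = 0.073). ATF3, a stress-induced transcription factor, rose by 0.28 ± 0.067 in HBL2 (adjusted p = 0.0098) and by 0.33 ± 0.082 in JEKO (adjusted p = 0.031). ATF4, the factor translated when PERK is active, had differences of 0.11 and 0.014 (adjusted p = 0.25 and 0.95). DDIT3, the gene of CHOP, had differences of 0.088 and 0.23 (adjusted p = 0.57 and 0.23).

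Among 12 tested genes of other folding and redox functions, SERP1, which protects new membrane proteins, rose (0.21, adjusted p = 0.032) and the reductase DNAJC10 fell (-0.31, adjusted p = 0.010) in HBL2 BR (16.7% of the list). In JEKO BR the oxidase ERO1A, which recharges disulfide isomerases, rose (0.27, adjusted p = 0.038; 8.33% of the list), and its change differed from that in HBL2 (-0.35, adjusted p = 0.021). Of 11 genes of the oligosaccharyltransferase, which attaches glycans, TUSC3 rose in HBL2 BR (0.44, adjusted p = 0.0086; 9.09% of the list), and none passed in JEKO BR. There 8 of the 11 estimates were negative, and 7 of the 11 had both BR arrays below both PT arrays (63.6%, against 22.5% of all genes tested). Of 15 COPII, cargo and KDEL receptor genes, the coat subunit SEC13 rose (0.25, adjusted p = 0.018) and the cargo receptor subunit MCFD2 fell (-0.29, adjusted p = 0.0083) in HBL2 BR (13.3% of the list), and none passed in JEKO BR. Of 13 cytosolic and membrane partners of degradation, VCP, the ATPase that pulls proteins out of the ER, rose in HBL2 BR (0.20, adjusted p = 0.035; 7.69% of the list), and none passed in JEKO BR. Of 10 genes of the signal recognition particle and targeting, TRAM1, a translocon partner, rose in JEKO BR (0.27, adjusted p = 0.041; 10% of the list), and none passed in HBL2 BR. The medians of these 5 lists lay between -0.011 and 0.080 in HBL2 and between -0.076 and 0.038 in JEKO. Among the genes read from lists by function, only the calls of XBP1 were followed through the alternative settings. Whether the other calls, those of ATF3 and CHAC1 included, would be lost under them was not tested.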

How the data were processed

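RNA of 10 samples was labelled with biotin and hybridised to Affymetrix arrays, and the deposited table gives a score for each of 54675 probe sets. The submitters' processing notes name MAS5 with no version, and the sources used here give no later step. The deposited scores were used as they are. All arrays hold the same sorted values (largest difference 0), so a shift of most genes one way cannot be seen. Precision is limited by the number of arrays. Groups were taken from the titles. Nothing in the labels says that replicates came from separate cultures: the p-values then reflect the spread between these arrays alone, possibly a technical one.

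Of the probe sets, 41091 had 1 gene symbol, and the one with the highest mean over the 10 arrays stood for its gene. Genes at or above the 50th percentile on at least 2 arrays (14445) entered a fit by limma 3.58.1 (R 4.3.3) (group means, eBayes with trend, two-sided, Benjamini-Hochberg over all genes tested, called at 0.05). Values after ± are standard errors. The fit was run on simulated data with independent noise as a check of the code, which does not say how small a change it would find here. The lists and members were chosen with earlier results of these data known. Genes given on every array were those called in a line or in the difference of changes, HSPA5, ATF6, ERN1 and EIF2AK3, and the 3 largest changes each way in each line; between PT cells, up to 5 each way among those called, by size. Of the other lists, up to 3 called genes a line and XBP1, ATF4 and DDIT3 were named. Alternatives covered the filter, variance model, array weights, probe sets, scale, RNA quality, a replicate block and leaving out each array. Same-numbered BR and PT arrays correlated at 0.0063 to 0.14 in their deviations from group means, and differently numbered ones at -0.20 to 0.16. Deviations within groups of 2 or 3 arrays are bound to one another, so this check cannot decide whether samples were paired. The numbers were not taken to pair the samples.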

Additional observations from a re-analysis of the deposited data

Results flagged for a closer look

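For 6 genes the change in HBL2 differed from that in JEKO by a test of the difference itself (limma, adjusted p under 0.05 over all genes tested). HBL2 change minus JEKO change was -0.65 for CRELD2, -0.61 for FKBP11, -0.51 for CREB3L2, -0.45 for DNAJB9, 0.37 for SELENOS and 0.50 for EDEM3. Those of CRELD2 and FKBP11 passed under all 22 alternatives run. That of EDEM3 passed under all of its 21 but the median over probe sets (0.34, adjusted p = 0.22). That of SELENOS was lost in 12 of 21, that of DNAJB9 in 9 of 22 and that of CREB3L2 in 4 of 22. Groups here hold 2 or 3 arrays, too few to look for a single array standing apart from its group.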

How the results depend on the processing

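Of 1475 comparisons of a named member with an alternative setting, 1312 stayed on the same side of the threshold, 129 lost a call and 33 gained one. Estimates called in neither fit count among the 1312 whatever their sign. In 1 comparison a called estimate reversed: the DNAJB9 difference of changes was 0.032 without _x_at and _s_at probe sets. Counts of called genes moved by over 1.5 times as follows, and the cause was not tested. With array weights 2690 genes were called in HBL2 (1711 in the reported fit) and 1031 in JEKO (622), and 12 of the 47 ER genes in HBL2 (6) and 7 in JEKO (2). Without the variance trend 398 genes were called in JEKO. The beta-actin covariate gave 11 of the 47 in HBL2. In JEKO the count of the 47 was 1 with no filter, with no trend and with the median over probe sets, and 7 with each line fitted alone. Without _x_at and _s_at probe sets 3 of the 47 had a difference of changes. With the 3 arrays of lowest beta-actin difference left out, a choice made after the data were seen, 135 genes were called in JEKO and 1 of the 47. Leaving out 1 array gave 1113 to 1648 genes in HBL2 and 116 to 950 in JEKO, and of the 47 it gave 4 to 10 in HBL2, 0 to 5 in JEKO, 3 to 8 for the difference of changes and 8 to 18 for HBL2 PT minus JEKO PT. The lowest JEKO counts were without JEKO BR replicate 2 and the highest without HBL2 PT replicate 3. A lone JEKO array is assumed to vary like the other groups. With the replicate block 9 of the 47 were called in HBL2, 3 in JEKO and 5 for the difference of changes, within 1.5 times of the reported counts, and no such fit was possible for HBL2 PT minus JEKO PT.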
